A study of Mus musculus with 44 samples.

Results

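Developmental transcription factor genes, 6 in number, were described here through the Polycomb sites that lie around them: Sp9, Osr2, Tlx1, Lbx1, Pax2 and Klf14. The sites are the entries of 3 deposited peak lists that overlap 5 windows of build mm9, because Tlx1 and Lbx1 share a window. The windows held 62 of 162947 entries: 24 from the PCGF1 list of 2569, 19 from the RING1B list of 24987 and 19 from the H3K27me3 list of 135391. The windows run over chr2:73090000-73130000 (Sp9), chr15:35200000-35250000 (Osr2), chr19:45200000-45340000 (Tlx1 and Lbx1), chr19:44650000-44940000 (Pax2) and chr6:30880000-30930000 (Klf14). The genes were selected on the fold enrichment, height and overlap of these same entries, so every fold, height, rank and overlap below is a description and none was tested.

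The series names 44 libraries of mouse haematopoietic progenitor cells in 23 groups, and each list stands for a pair of them. All 3 lists come from IdHP cells, cultured progenitors of bone marrow origin and strain B6CBAF1/J at passages 15 to 18, grown on TSt4 stroma with IL7, SCF and Flt3 ligand. PCGF1 was mapped with a FLAG antibody in Pcgf1 -/- cells that carried FLAG-PCGF1, so the protein seen is a tagged one returned to cells that lack their own. RING1B and H3K27me3 were mapped in Pcgf1 fl/fl cells. The level of the returned protein is not given in the sources used here, and PCGF1 is set beside RING1B and H3K27me3 across different cell populations. The other 38 libraries, among them the Pcgf1 -/- RING1B and H3K27me3 libraries, the FLAG control labelled NC and the Ring1A/B -/- RING1B control, were not analysed here. No value has a replicate error and the read depth is unknown. The lists hold no expression, so neither the labelled cell type nor the activity of the 6 genes was checked.

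Polycomb proteins keep developmental genes silent in lineages that do not use them. PCGF1 is the subunit that sets apart one variant of Polycomb repressive complex 1, a complex that contains the ubiquitin ligase RING1B and is brought to CpG-rich DNA by the subunit KDM2B. RING1B marks histone H2A, and Polycomb repressive complex 2 places methyl groups on lysine 27 of histone H3 to give H3K27me3. The 6 genes are known mainly for roles outside blood. Sp9 is a zinc finger factor of limb bud and forebrain interneuron development, and Osr2 a zinc finger factor of palate and tooth formation. Tlx1 is a homeobox gene required for the spleen and known for its activation in T cell leukaemia, and Lbx1 is a homeobox gene of migrating limb muscle precursors and dorsal spinal cord neurons. Pax2 is a paired box gene of kidney, eye and ear, and Klf14 is an intronless, imprinted gene linked to fat tissue metabolism.

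Since KDM2B binds CpG, promoter sequences of the members are shown for their CpG content. The RefSeq promoter table of build GRCm38.p6 held 3 of the 6 genes (Sp9, Tlx1 and Pax2, the last with 3 starts). Below are the 250 bases before the Sp9 start and before the outermost Pax2 start, 5′ to 3′, with each CG in capitals; they contrast a start with more CG than most with one near the median.
Sp9, GRCm38.p6 chr2:73271676-73271925, plus strand: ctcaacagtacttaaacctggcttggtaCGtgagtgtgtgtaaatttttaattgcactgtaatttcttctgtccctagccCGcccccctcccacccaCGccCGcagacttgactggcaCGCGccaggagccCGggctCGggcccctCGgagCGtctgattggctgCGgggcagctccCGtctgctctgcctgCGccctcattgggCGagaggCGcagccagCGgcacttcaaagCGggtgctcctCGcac
Pax2, first start, GRCm38.p6 chr19:44746351-44746600, plus strand: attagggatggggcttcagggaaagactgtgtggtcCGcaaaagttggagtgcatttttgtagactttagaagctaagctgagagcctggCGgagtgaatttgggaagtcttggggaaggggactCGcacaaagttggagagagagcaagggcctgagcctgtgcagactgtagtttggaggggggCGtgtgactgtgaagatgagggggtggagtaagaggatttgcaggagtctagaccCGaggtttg
The Sp9 stretch held 18 CG and the Pax2 stretch 5, while the median of all 32851 promoter entries of that length was 6. At least 18 CG occurred in 21.7% of those entries and at least 5 in 55.6%. The 2 inner Pax2 starts had 20 and 25 CG, counts reached by 17.9% and 10.7% of entries, while the count at the first start was close to the median. Tlx1 had 15 CG, reached by 27.3%. Of 8 close relatives of the members 4 were in the table: Pax5 had 19 CG, Pax8 6 and Tlx3 13, while the 3 starts of Sp8 had 1, 32 and 6. The GC box GGGCGG, searched on both strands and itself holding a CG, occurred once before Sp9 and once before each inner Pax2 start and not in the windows before Tlx1 or the first Pax2 start; 32.7% of all entries held it. The promoters belong to another build than the peaks and were not placed on them.

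The 3 lists were laid out differently at each locus. Sp9, Osr2 and Klf14 each had a strong, wide RING1B peak that lay mostly on H3K27me3, in a single main region at Sp9 and Osr2 and in several at Klf14, whereas the Tlx1-Lbx1 window had long H3K27me3 regions with RING1B in separate blocks. Pax2 had the longest H3K27me3 region of the whole list and little RING1B. RING1B peaks covered 85.4% of the Klf14 window, 56.4% of the Sp9 window, 50.4% of the Osr2 window, 24.5% of the Tlx1-Lbx1 window and 1.96% of the Pax2 window. H3K27me3 covered the most in the windows where RING1B covered the least, with 91.5% at Tlx1-Lbx1 and 96.5% at Pax2. Among the others the order was not inverse, with 65.6% at Sp9, 78.4% at Osr2 and 80.9% at Klf14. These shares depend on the window limits, which were 40, 50, 50, 140 and 290 kb long for Sp9, Osr2, Klf14, Tlx1-Lbx1 and Pax2.

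**Figure D1:**
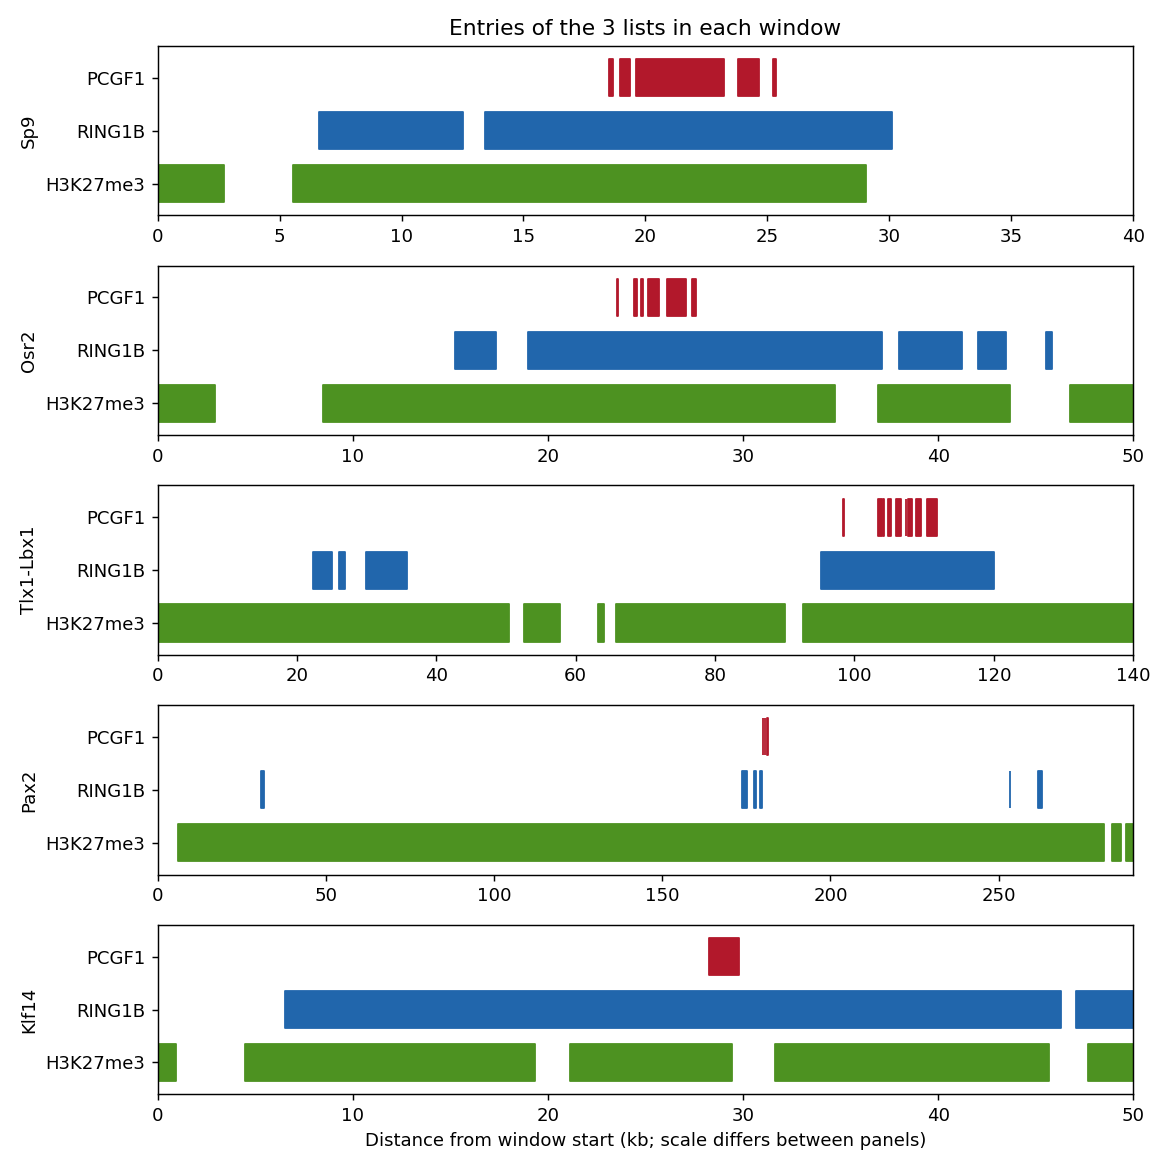
Entries of the PCGF1, RING1B and H3K27me3 lists along each of the 5 windows, in kb from the window start, with entries clipped at the window limits and a separate scale in each panel. PCGF1 peaks sit within a RING1B peak at Sp9, Osr2, Tlx1-Lbx1 and Klf14, and beside RING1B at Pax2.

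**Figure D2:**
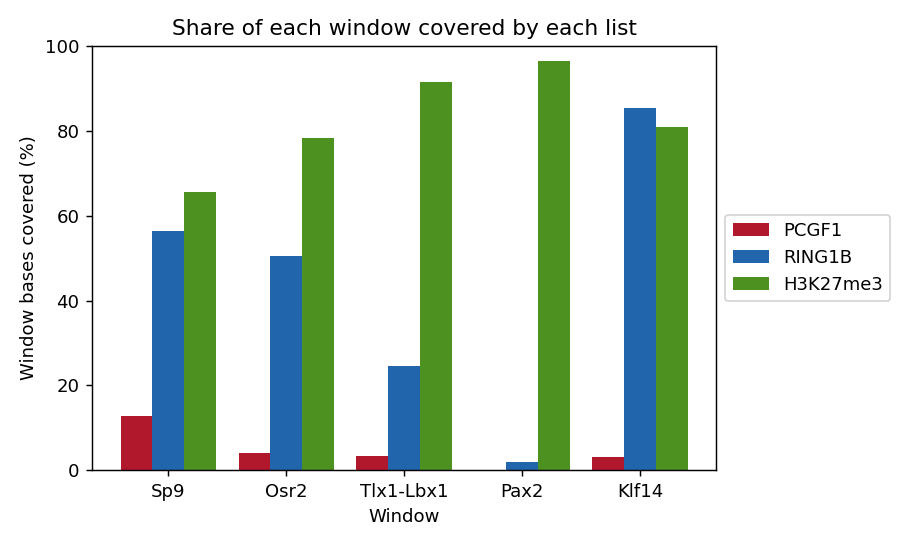
Share of each window's bases (%) covered by each list. RING1B covers from 1.96% (Pax2) to 85.4% (Klf14) and H3K27me3 from 65.6% (Sp9) to 96.5% (Pax2).

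Sp9 carried the strongest RING1B peak of the 5 windows. The peak at chr2:73103417-73120114 was 16.7 kb wide, with a fold enrichment of 18.9 and a -log10 q of 84.0. Fold enrichment and -log10 q are the authors' values for the peak, in the layout's columns for enrichment and adjusted significance; how they were computed is not given in the sources used here. By fold it ranked number 3 of 24987 RING1B peaks. A second RING1B peak, chr2:73096628-73102507, lay just before it with a fold of 3.49, between the median (3.22) and the upper quartile (3.56) of the list. Inside the strong RING1B peak lay 5 PCGF1 peaks and none elsewhere in the window. Their folds, in genome order, were 4.96, 4.74, 6.38, 5.24 and 5.07, so the highest stood in the middle of the group. That central peak, chr2:73109602-73113214, was 3613 bp wide and ranked number 12 of 2569 PCGF1 peaks both by fold and by width. The 5 peaks spanned 6.83 kb, separated by gaps of 233 to 567 bp, and their span was centred 50.9% of the way along the RING1B peak. The H3K27me3 region at chr2:73095560-73119060 had a height of 227 (the highest signal in the region, on a scale that is not stated). It began 7.86 kb before the strong RING1B peak and covered 93.7% of it.

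Osr2 had a similar arrangement with a narrower group of PCGF1 peaks. Its strongest RING1B peak, chr15:35219003-35237147, was 18.1 kb wide with a fold of 15.6 and a -log10 q of 63.1, and ranked number 7 by fold. It was flanked by 4 smaller RING1B peaks, 1 before and 3 after, with folds of 2.92 to 3.23. None of these 4 reached the upper quartile of the list, 3.56, and the weakest was below the lower quartile, 3.03. The strength of the locus thus lay in a single peak. Inside that peak fell 6 PCGF1 peaks, with folds of 5.22, 6.11, 4.66, 4.55, 4.70 and 4.47 in genome order. Here the highest fold came near the start of the group, at chr15:35224430-35224560, a peak of only 131 bp. The group spanned 4.04 kb with gaps of 228 to 818 bp and was centred 36.2% of the way along the RING1B peak, nearer its start. The tallest H3K27me3 region, chr15:35208480-35234740, had a height of 200.0 (listed as 199.97) and ended 2.41 kb before the RING1B peak did. A gap of 2.18 kb in H3K27me3 lay inside the strong RING1B peak, near its end, and H3K27me3 in all covered 88.0% of that peak.

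At Klf14 the RING1B peak was the widest of the 5 windows but held a single PCGF1 peak. The RING1B peak at chr6:30886516-30926283 was 39.8 kb wide, number 16 of the list by width and number 30 by fold, with a fold of 10.1 and a -log10 q of 33.7. A second RING1B peak of fold 4.33 began within 1 kb of its end and crossed the window limit. The PCGF1 peak, chr6:30908255-30909811, had a fold of 6.51, number 9 of 2569, and was 1557 bp wide. It lay 21.7 kb from the start and 16.5 kb from the end of the RING1B peak, or 56.6% of the way along. H3K27me3 was broken into 5 regions across this window, with heights of 132, 137, 202, 131 and 81.3 in genome order. The tallest, chr6:30901120-30909450, ended inside the PCGF1 peak, and a gap of 2.21 kb followed. Thus 76.8% of the PCGF1 peak's bases were under H3K27me3, and the rest lay in the gap. At the other 4 windows 100% of PCGF1 bases were under H3K27me3. Of the 14 gaps between neighbouring H3K27me3 regions in the 5 windows, this was the one that a PCGF1 peak reached.

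The Tlx1-Lbx1 window held a pair of separate RING1B blocks that differed in PCGF1. In RefSeq's order on this chromosome Tlx1 is followed by Lbx1 and then Btrc, with no other coding gene between them; the blocks were not assigned to either gene, since that annotation is of another build. The first block had 3 RING1B peaks between 45222235 and 45235732 on chromosome 19, with folds of 3.23, 3.04 and 4.81, and no PCGF1 peak. After 59.5 kb without RING1B came the second block, a single peak at chr19:45295215-45320033. This peak was 24.8 kb wide with a fold of 6.43 and a -log10 q of 14.1, number 260 by fold and number 64 by width. It held 9 PCGF1 peaks, more than any other RING1B peak of the list. Their folds in genome order were 4.58, 4.41, 4.04, 4.83, 4.63, 4.74, 4.45, 4.24 and 5.19. Most were thus ordinary or low for the PCGF1 list, and 2 of the 9 exceeded its median of 4.79. The RING1B peak stood out by the number of PCGF1 peaks it held and not by their fold. That number was not matched for width. The first PCGF1 peak stood apart by 4862 bp, the gap between any other neighbours was smaller, and the median gap was 633 bp. The group spanned 13.4 kb, or 54.1% of the RING1B peak.

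H3K27me3 at the Tlx1-Lbx1 window was long on both sides. The first RING1B block lay in a region of 79.8 kb, chr19:45170630-45250410, with a height of 258. The second lay in a region of 89.0 kb, chr19:45292590-45381620, with a height of 326, number 148 of 135391 by height and number 11 by total signal. Both regions ran past the window limits. The second held 6 RING1B peaks and 10 PCGF1 peaks in all, of which 1 and 9 fell in the window. RING1B covered 39.6% of it, against a median of 5.40% (quartiles 0.679 to 15.7%) over the 100 widest H3K27me3 regions, a comparison chosen after the values were seen. Those 100 regions held a median of 0 PCGF1 peaks and a highest number of 48, so 10 was not the most.

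Pax2 went against the description of these loci as strong Polycomb sites in RING1B and PCGF1, though not in H3K27me3. Its window held 6 RING1B peaks with folds of 4.90, 3.40, 2.74, 2.90, 2.98 and 3.29 in genome order and widths of 249 to 1660 bp. The strongest, chr19:44680799-44681745, ranked number 1032 by fold and lay far from the others, near the start of the window. Close together lay 3 of the RING1B peaks, from 44823568 to 44829697, and 3 PCGF1 peaks followed directly after them. These PCGF1 peaks, at chr19:44829837-44829982, chr19:44830559-44830607 and chr19:44831175-44831448, had folds of 4.47, 5.11 and 4.54 and widths of 146, 49 and 274 bp. Tlx1-Lbx1 was close to this in PCGF1 fold, with a highest fold of 5.19 (number 421 of the list) beside 5.11 (number 544) at Pax2. None of the 3 Pax2 peaks shared a base with RING1B. The nearest was 139 bp and the farthest 1477 bp from a RING1B peak. All 3 were under H3K27me3. That region, chr19:44656030-44931190, was 275 kb wide, the widest of the 135391 regions, and number 2 by total signal. Of its length 133.6 kb, or 48.6%, was above the authors' cutoff, and its height of 408 ranked number 102. RING1B covered 2.07% of it. Among the 100 widest regions 34 had a lower RING1B share, so a small share was common there. The next widest region of the list, chr15:102746200-102980960, was 235 kb wide, had 45.7% of its length under RING1B and held no PCGF1 peak.

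**Figure D3:**
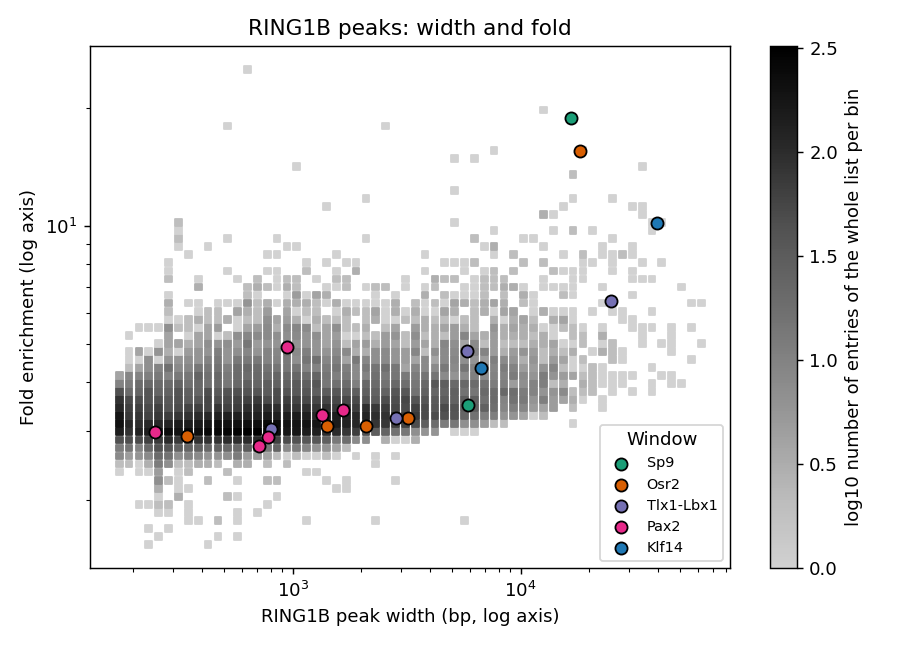
Width (bp, log axis) and fold enrichment (log axis) of RING1B peaks; grey squares are bins of the whole list, shaded by the log10 number of peaks, and coloured points are the 19 peaks in the windows. The strong peaks of Sp9, Osr2 and Klf14 lie at the upper right, while the Pax2 peaks have folds of 2.74 to 4.90 and widths of up to 1660 bp.

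**Figure D4:**
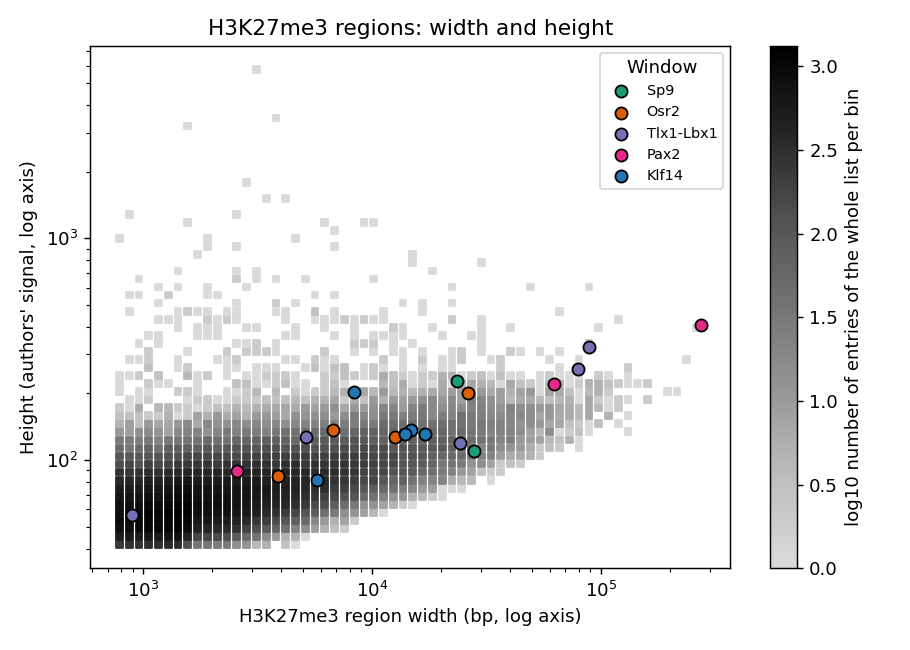
Width (bp, log axis) and height (the authors' signal, log axis) of H3K27me3 regions, drawn in the same way with the 19 regions in the windows. The 275 kb Pax2 region is the rightmost of the list, and the regions taller than it are narrower.

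The order of the loci therefore differed between the lists. By the strongest RING1B fold it was Sp9 (18.9), Osr2 (15.6), Klf14 (10.1), Tlx1-Lbx1 (6.43) and Pax2 (4.90). By the tallest H3K27me3 region it was Pax2 (408), Tlx1-Lbx1 (326), Sp9 (227), Klf14 (202) and Osr2 (200.0), and neighbours in this order such as Klf14 and Osr2 were nearly equal. The highest PCGF1 fold was 6.51 at Klf14, 6.38 at Sp9, 6.11 at Osr2, 5.19 at Tlx1-Lbx1 and 5.11 at Pax2. With no replicate values it cannot be said which of these neighbours differ beyond the spread between libraries.

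Over the 5 windows, 21 of the 24 PCGF1 peaks (87.5%, exact 95% binomial interval 67.6 to 97.3, counting error only) shared at least 1 bp with RING1B, beside 75.3% of the whole PCGF1 list. The 3 exceptions were those of Pax2. All 24 lay on H3K27me3 (interval 85.8 to 100%), beside 50.4% of the list. Neighbouring peaks share a locus and are not independent, so these counts rest on 5 loci. Of the PCGF1 peaks, 10 of 24 had a fold above the list's median, beside 50% of the list by construction, and 1 of 24 reached a -log10 q of 5, beside 2.49%. Neither share is read as a result, since fold was among the values that chose the loci.

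**Figure D5:**
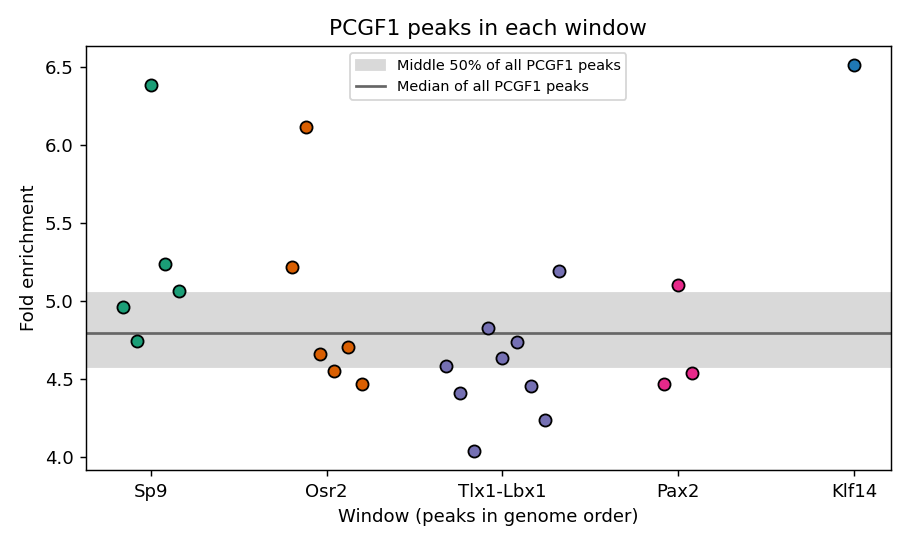
Fold enrichment of each of the 24 PCGF1 peaks by window, in genome order, with the median (line) and the middle 50% (grey band) of all 2569 PCGF1 peaks. Single peaks at Sp9 (6.38), Osr2 (6.11) and Klf14 (6.51) stand above the others, which lie between 4.04 and 5.24.

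Of the 19 RING1B peaks, 4 (21.1%, interval 6.05 to 45.6) held PCGF1, beside 5.85% of the RING1B list. In each of the 4 windows concerned, the peak that held PCGF1 had the highest fold and was also the widest. Fold and width cannot be told apart here. H3K27me3 lay on 18 of 19 (94.7%, 74.0 to 99.9), beside 44.4%; the exception was the weakest Osr2 peak, chr15:35245518-35245861, which sat in a gap between H3K27me3 regions. Widths above 10 kb were found in 4 of 19, beside 1.86% of the list, folds of 10 or more in 3 of 19, beside 0.124%, and a -log10 q of 5 or more in 7 of 19, beside 9.96%. Fold above the median of the list was found in 12 of 19, beside 50%. Nothing is read from these shares, since the windows were chosen with such values in view. The 4 wide peaks were under H3K27me3 for 93.7% of their length at Sp9, 88.0% at Osr2, 88.4% at Klf14 and 100% at Tlx1-Lbx1. The 460 RING1B peaks wider than 10 kb outside the windows had a median of 75.9% and quartiles of 50.8 and 94.0%.

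Among the 19 H3K27me3 regions, 18 were taller than the median of their list, 68.5, beside 49.9% of the list. RING1B lay on 13 of 19, beside 5.57%, and PCGF1 on 5 of 19, 1 in each window, beside 0.614%. Each region was counted over its whole length, so some of the 13 met RING1B only beyond the window limits. In each window PCGF1 was on the tallest region. The exception in height, chr19:45263140-45264030, was an 890 bp region of height 56.6 between the Tlx1-Lbx1 blocks. Regions in the windows were also wider, with a median of 14850 bp beside 1840 bp over the list, and the shares were not matched for width. Nothing is read from them, since the windows were chosen with height and overlap in view.

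An arrangement of 4 or more PCGF1 peaks under 1 RING1B peak was rare over the whole RING1B list. Most of that list, 23526 peaks, held no PCGF1 peak, while 1123 held 1 and 241 held 2. At least 4 PCGF1 peaks were held by 31 RING1B peaks, 0.124% of the list, of which 3 were those at Sp9, Osr2 and Tlx1-Lbx1. At least 5 were held by 7, or 0.028%, which include the same 3. The 28 peaks of at least 4 outside the windows had a median fold of 5.84 (2.98 to 14.2). Their median width was 8774 bp, beside 744 bp over the whole RING1B list, and the counts were not matched for width. In them the PCGF1 group was centred at a median of 52.3% of the RING1B peak (quartiles 41.5 and 64.8) and spanned a median of 51.3% of it. Beside these, the Sp9 group was as central, and those of Osr2 (36.2%) and Tlx1-Lbx1 (39.8%) lay nearer the lower coordinate than the middle 50% of the others. The Osr2 group was also compact, at 22.2% of its RING1B peak, below the lower quartile of the others (31.9%). It was not the most compact, since the others went down to 8.69%.

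The sites most like Sp9, Osr2 and Tlx1-Lbx1 were taken as the 10 other RING1B peaks of highest fold with at least 4 PCGF1 peaks. They had RING1B folds of 7.72 to 14.2, and all 10 lay on H3K27me3. Klf14 and Pax2 did not meet this criterion, since their strongest RING1B peaks held 1 and 0 PCGF1 peaks. The strongest was chr4:3834419-3868086, with a fold of 14.2, 4 PCGF1 peaks up to a fold of 6.18 and an H3K27me3 height of 173. None of the 10 reached the RING1B fold of Sp9 or Osr2, for which the windows were chosen. All 10 exceeded the highest fold of Tlx1-Lbx1 (6.43) and Pax2 (4.90), and several exceeded that of Klf14 (10.1). Since the 10 were taken by high fold, nothing is read from this. Over all 31 RING1B peaks with at least 4 PCGF1 peaks the median fold was 6.43, the value at Tlx1-Lbx1. The most PCGF1 peaks among them, 8 each, were at chr14:122862279-122893132 (RING1B fold 11.2) and chr7:138685463-138704071 (8.45), 1 fewer than at Tlx1-Lbx1. Their tallest H3K27me3 regions, at 253 and 244, were below that of Tlx1-Lbx1 (326) and above that of Sp9 (227). Likeness here means number of PCGF1 peaks and fold alone, and genes at these sites were not assigned.

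The window limits cut through 8 of the 19 H3K27me3 regions and 1 RING1B peak, and through no PCGF1 peak. Beyond them, the nearest RING1B peak was 1.35 kb before the Klf14 window, with a fold of 4.06. At Sp9 the nearest was 7.32 kb before (fold 3.16), at Tlx1-Lbx1 11.1 kb after (2.92), at Pax2 12.6 kb before (3.96) and at Osr2 16.6 kb after (3.59). Pooled over the 5 windows, these folds lay within the range of the weaker peaks inside, but not window by window. At Sp9, Tlx1-Lbx1 and Klf14 they were below the lowest fold inside (3.49, 3.04 and 4.33). At Osr2 and Pax2 they were above all RING1B peaks inside except the strongest. PCGF1 outside was farther off: the nearest was 36.1 kb after the Tlx1-Lbx1 window, with a fold of 4.91, and for Osr2 the nearest was 962 kb away.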

How the data were processed

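Chromatin immunoprecipitation libraries of IdHP cells stand behind 3 lists: FLAG-PCGF1, RING1B and H3K27me3, 2 libraries each, per the labels. The submitters' processing notes name Bowtie2, Picard and SAMtools 1.6.0 and the builds dm3 and mm9, of which mm9 was taken for the positions. How peaks were called, against which control, and whether on pooled reads, is not given in the sources used here. In the deposited broadPeak layout of PCGF1 and RING1B the authors' values are a fold enrichment (a ratio), a -log10 q and a score, the whole-number part of 10 times that -log10 q. H3K27me3 regions have, per the file headers, a height and a total signal on an unstated scale, a width above the cutoff (another measure) and a log p, taken as -log10 p.

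Entries that overlap the windows by at least 1 bp were taken with Python 3.11.15 and pandas 2.3.3. PCGF1 and RING1B positions are 1-based and H3K27me3 positions as listed. Shares have exact 95% binomial (Clopper-Pearson) intervals from scipy 1.17.1. Ranks are within a list. RING1B blocks were split at gaps over 10 kb. The overlap code was tested on simulated data. The genes, windows and lists were chosen with earlier results of these data known. The rule for named sites took, in each window, the RING1B and PCGF1 peaks of highest fold, the tallest H3K27me3 region and every PCGF1 peak; sites named for another feature were chosen after their values were seen. RefSeq promoters and gene order (GRCm38.p6) served for sequences and names alone.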

Additional observations from a re-analysis of the deposited data

How the results depend on the processing

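Alternatives gave 69 recomputed values, and the cause of a change was not tested except where the setting itself gives it. The loci were selected and ranks have no counting error, so nothing about stability is read from how many values moved. No paired analysis was possible because 1 list is given for each pair of libraries and no value per library was used, so no replicate could be left out either. PCGF1 peaks on RING1B (87.5%) came to 100% without the Pax2 window, and 100% with a -log10 q of at least 5, where 1 PCGF1 peak was left. The share of RING1B peaks with PCGF1 (21.1%) was 0% when 50% of the RING1B peak had to be covered, which narrow PCGF1 peaks could not do, 11.4% (4 of 35) with windows 20 kb wider and 33.3% (4 of 12) with the stronger 50% of both lists. The share of RING1B peaks on H3K27me3 (94.7%) was 100% with peaks within 1 kb (19 of 19), with -log10 q of at least 5 (7 of 7) and with the stronger 50% of both lists (12 of 12). Shares of the whole lists were not recomputed under these settings. It is therefore unknown whether the whole lists changed likewise, and nothing about the loci is read from these changes.

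Ranks depended on the measure, each taken as the highest entry of the window by that measure and given here as the top share of its list. For RING1B, width gave 0.564% at Sp9, 0.460% at Osr2, 0.256% at Tlx1-Lbx1, 23.1% at Pax2 and 0.0640% at Klf14, where fold gave 0.0120, 0.0280, 1.04, 4.13 and 0.120%; -log10 q gave 5.20% at Pax2. For H3K27me3, total signal gave 0.457% at Sp9, 0.00812% at Tlx1-Lbx1, 0.00148% at Pax2 and 1.38% at Klf14. Width gave 1.02, 1.15, 0.0569, 0.000739 and 2.66% at Sp9, Osr2, Tlx1-Lbx1, Pax2 and Klf14, where height gave 0.249, 0.430, 0.109, 0.0753 and 0.405%. For PCGF1, -log10 q gave 2.61% at Sp9, 3.11% at Osr2, 12.5% at Tlx1-Lbx1, 17.9% at Pax2 and 2.37% at Klf14. Width gave 10.5% at Osr2, 5.14% at Tlx1-Lbx1, 42.5% at Pax2 and 3.97% at Klf14, where fold gave 0.467% at Sp9, 1.32, 16.4, 21.2 and 0.350%.

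With windows 20 kb wider on each side, RING1B peaks went from 2 to 6 at Sp9, 4 to 7 at Tlx1-Lbx1 and 2 to 9 at Klf14, and H3K27me3 regions from 4 to 8 at Osr2 and 5 to 8 at Klf14. PCGF1 counts were the same in all 5 windows.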
